A study of Mus musculus with 9 samples.

Results

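The genes described here are 43 mouse genes of the cell cycle and of DNA replication, followed in fetal ovaries before and after grafting into male mice. The list names 22 genes of mitosis, 15 of DNA replication, 3 D-type cyclins and 3 inhibitors of cyclin-dependent kinases. A gene was measured where a probe set of the array was annotated to it alone, and the probe set with the highest mean over all arrays stood for the gene. This gave 42 of the 43 genes, of 18194 genes with a probe set of their own, and Ccnb1 (cyclin B1) was not measured. The samples were XX ovaries of E13.0 embryos labelled as ICR, grafted under the kidney capsule of adult XY BALB/c nu/nu nude mice, which lack mature T cells, and taken out 4, 7, 10, 15 or 20 days later. The reference was E13.0 ovaries before transplantation (day 0), so the grafts were 4 to 20 days older than their reference. No array holds ungrafted ovaries of matching age, so effects of grafting and of age cannot be told apart. In every group, day 0 included, the pregnant females had been injected with busulfan, a DNA-alkylating agent used to deplete germ cells, and the study's methods name both C57BL/6 and ICR as strains of these females. About 10 grafts were pooled per array. Days 0, 10 and 20 have 2 arrays, and days 4, 7 and 15 have a single array.

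Cells copy their DNA in S phase and divide in M phase. D-type cyclins with their kinases inactivate the retinoblastoma family, which frees E2F factors to switch on cyclin E and the replication genes. Mitotic genes are switched on later, and many of them carry a CCAAT box, bound by NF-Y, and a cell cycle homology region (CHR), bound by the DREAM and MYB-MuvB complexes. INK4 and CIP/KIP proteins inhibit the kinases, and in the fetal mouse ovary such inhibitors are known to accompany the withdrawal of pre-granulosa cells from the cycle.

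Promoter sequences of the genes show this division of the list only in part. RefSeq promoters of build GRCm38.p6, from 250 bases before the annotated start to 50 bases after its first base, were found for 33 of the 42 measured genes. They were searched on both strands for the CHR-like letters TTTGAA, the CCAAT box (CCAAT) and the E2F-like letters TTCCCGC, with their variants TTGGCGC and also TTCGCGC. Matches may overlap, and each promoter was counted once per motif. The CHR-like letters stood in 13 of 17 promoters of mitotic genes (76.5%) and in 1 of 13 of replication genes (7.69%), against 17.9% of all 32851 promoters. The E2F-like letters stood in 2 of 17 promoters of mitotic genes (11.8%) and in 7 of 13 of replication genes (53.8%), against 8.07% of all promoters. The CCAAT box was found in 15 of 17 (88.2%) and in 8 of 13 (61.5%) of them, against 37.4% of all. These matches describe letters in a window and are not measured binding sites.

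The first 5 sequences below are bases just upstream of the start of mitotic genes, shown for their CCAAT boxes and, except in Ccnb2, their CHR-like letters, and the last 4 are of MCM helicase genes and of Cdkn2c, shown for the E2F-like letters. Capitals mark the motifs on either strand.
Cdk1 (chr10:69352913-69353002, minus strand): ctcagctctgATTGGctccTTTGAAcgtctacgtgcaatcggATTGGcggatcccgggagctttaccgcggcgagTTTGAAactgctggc
Top2a (chr11:99024190-99024299, minus strand): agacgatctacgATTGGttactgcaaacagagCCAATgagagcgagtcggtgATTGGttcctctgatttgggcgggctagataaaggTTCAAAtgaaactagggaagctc
Kif11 (chr19:37376322-37376381, plus strand): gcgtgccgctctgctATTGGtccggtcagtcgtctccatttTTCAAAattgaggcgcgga
Cdc20 (chr4:118437344-118437403, minus strand): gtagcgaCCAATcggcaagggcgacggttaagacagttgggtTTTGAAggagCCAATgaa
Ccnb2 (chr9:70421555-70421649, minus strand): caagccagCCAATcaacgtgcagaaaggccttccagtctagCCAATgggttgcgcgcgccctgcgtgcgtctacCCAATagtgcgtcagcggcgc
Mcm5 (chr8:75109339-75109439, plus strand): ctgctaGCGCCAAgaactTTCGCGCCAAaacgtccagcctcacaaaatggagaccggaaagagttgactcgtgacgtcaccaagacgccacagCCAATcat
Mcm6 (chr1:128359740-128359820, minus strand): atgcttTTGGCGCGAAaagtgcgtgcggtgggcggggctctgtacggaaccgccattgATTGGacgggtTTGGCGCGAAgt
Mcm7 (chr5:138171948-138172053, minus strand): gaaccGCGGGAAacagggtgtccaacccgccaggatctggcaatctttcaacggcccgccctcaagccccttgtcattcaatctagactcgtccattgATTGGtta
Cdkn2c (chr4:109666757-109666816, minus strand): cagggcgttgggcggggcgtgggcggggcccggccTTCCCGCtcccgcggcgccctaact
The CHR-like letters nearest to the start began at -15 in Cdk1, -19 in Kif11, -18 in Cdc20 and -23 in Top2a, counted from the annotated start. The 3 CCAAT boxes of Ccnb2 began at -87, -54 and -21, at equal distances from each other, and its CHR-like letters at -167 and 4 lie outside the stretch printed. In Mcm6 each run of E2F-like capitals holds overlapping matches on both strands. Cdkn2c and Mcm7 have a second annotated promoter each, which is not printed.

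All levels are log2 intensities normalized by the study's authors, a difference of 1 is a 2-fold change, and where a day has 2 arrays replicate 1 is given first. A gene was called where limma's adjusted p (Benjamini-Hochberg over all 45101 probe sets) was under 0.05 and the change over 2-fold. The sources do not say which litters or hosts made up a pool, so the p-values cover only the spread between pooled samples. Every comparison with day 0 uses the same 2 day 0 arrays, so these comparisons are not independent of each other.

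The arrays differed in the levels of cell type markers, and replicate 1 of day 20 stood apart. The 10 genes of the kidney proximal tubule averaged 11.79 on that array, against 5.87 to 7.00 on the other 8 arrays, and day 20 changes of single genes are given with and without it, for the probe set used for each gene. Ovarian somatic markers (10 genes) averaged between 9.56 and 11.46 in the grafts, lowest on the same replicate 1 of day 20, against 11.73 and 11.59 on day 0. Fetal germ cell markers (9 of 10 genes measured) averaged 7.56 and 9.73 on day 0, 5.81 on day 4, 7.07 on day 7, 7.76 and 9.42 on day 10, 8.84 on day 15 and 8.38 and 8.99 on day 20, although germ cells had been depleted with busulfan. The germ cell genes did not move alike on later days. On day 10 their changes against day 0 lay between -2.63 and 2.49, with 5 of 9 genes lower. On day 20 they lay between -2.63 and 2.36, again with 5 of 9 lower, so the mean of this list does not describe each gene. Macrophage markers (10 genes) lay between 8.92 and 10.33 in the grafts, against 7.16 and 7.65 on day 0. Erythroid markers (8 of 10 measured) lay between 4.65 and 6.05 in the grafts, against 9.06 and 8.40 on day 0. In bulk tissue, fewer dividing cells and less RNA per cell cannot be told apart.

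**Figure D1:**
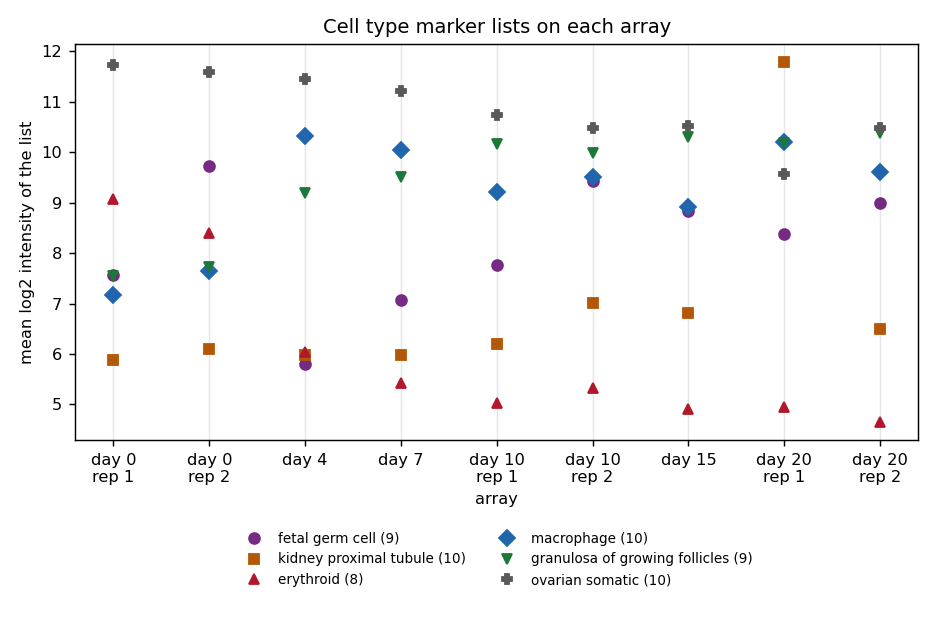
Mean log2 intensity of 6 lists of cell type markers (y axis) on each of the 9 arrays (x axis, by day and replicate), 1 point per list and array, with the number of measured genes in brackets. The kidney proximal tubule list stands at 11.79 on replicate 1 of day 20 and at 7.00 or less on the other arrays, and the fetal germ cell list is lowest on day 4.

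By their medians, mitotic and replication genes were lower in the grafts than in day 0 ovaries. They were lowest on days 4 and 7 and on replicate 1 of day 20, the array with the kidney markers. The medians of replicate 2 of day 20 lay between these and the medians of days 10 and 15. The median change of the 21 mitotic genes against the day 0 mean was -1.08 on day 4, -0.95 on day 7, -0.54 and -0.32 on day 10, -0.31 on day 15 and -1.13 and -0.63 on day 20. For the 15 replication genes it was -1.07, -1.09, -0.70 and -0.63, -0.79, and -1.25 and -0.91 on the same days. Over all probe sets, the median change against day 0 lay between -0.06 on day 4 and -0.11 on day 20. Both lists were thus about 2-fold below day 0 on days 4 and 7, and the mitotic genes were closer to day 0 on days 10 and 15 than the replication genes, a difference that was not tested.

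**Figure D2:**
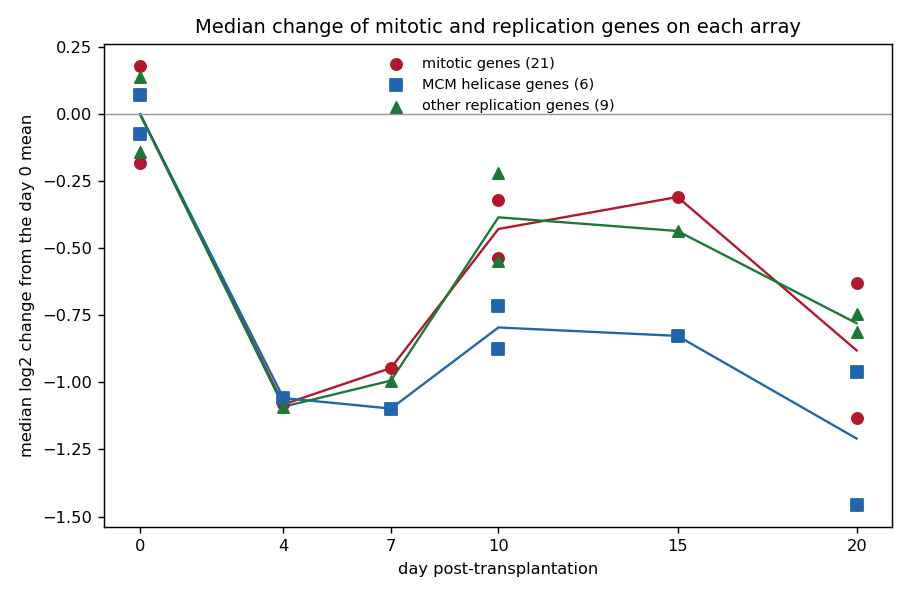
Median log2 change from the mean of the 2 day 0 arrays (y axis) by day post-transplantation (x axis), 1 point per array, for 21 mitotic genes, 6 MCM helicase genes and 9 other replication genes. The line of each group passes through its day means. All 3 groups lie near -1 on days 4 and 7, and the MCM helicase genes stay lowest on days 10 and 15.

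Few single genes passed the test on days 4 to 15. On day 4 none of the 42 genes was called lower (0.155% of all probe sets were) and 1 was called higher (0.774% of all). On day 7 the counts were again 0 lower (0.386% of all) and 1 higher (1.28% of all). At an unadjusted p under 0.05, 29 genes were lower on day 4 (4.33% of all probe sets) and 25 on day 7 (6.57% of all), and the later days had 14 on day 10 (11.3% of all), 9 on day 15 (8.67% of all) and 27 on day 20 (15.8% of all). On day 10, 1 gene was called lower (1.33% of all) and 1 higher (2.87% of all), and on day 15 there were 0 lower (0.8% of all) and 1 higher (2% of all). On day 20, 11 genes were called lower (3.1% of all) and 1 higher (4.52% of all). The gene called higher was Cdkn2c on each of these days. The 11 genes lower on day 20 were Top2a, Cenpa and Kif11 of the mitotic genes, Rrm2, Mcm2, Mcm3, Mcm6, Mcm7 and Ccne1 of the replication genes, and Ccnd3 and Cdkn1a. These calls rest on few arrays. Without 1 of the day 0 arrays, at most the call of Cdkn1a was left. Without either day 10 array, those of Rrm2, Ccnd3 and Cdkn1a were left. Calls were lost over all probe sets too, with 0.902% lower on day 20 when only the arrays of days 20 and 0 were fitted.

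**Figure D3:**
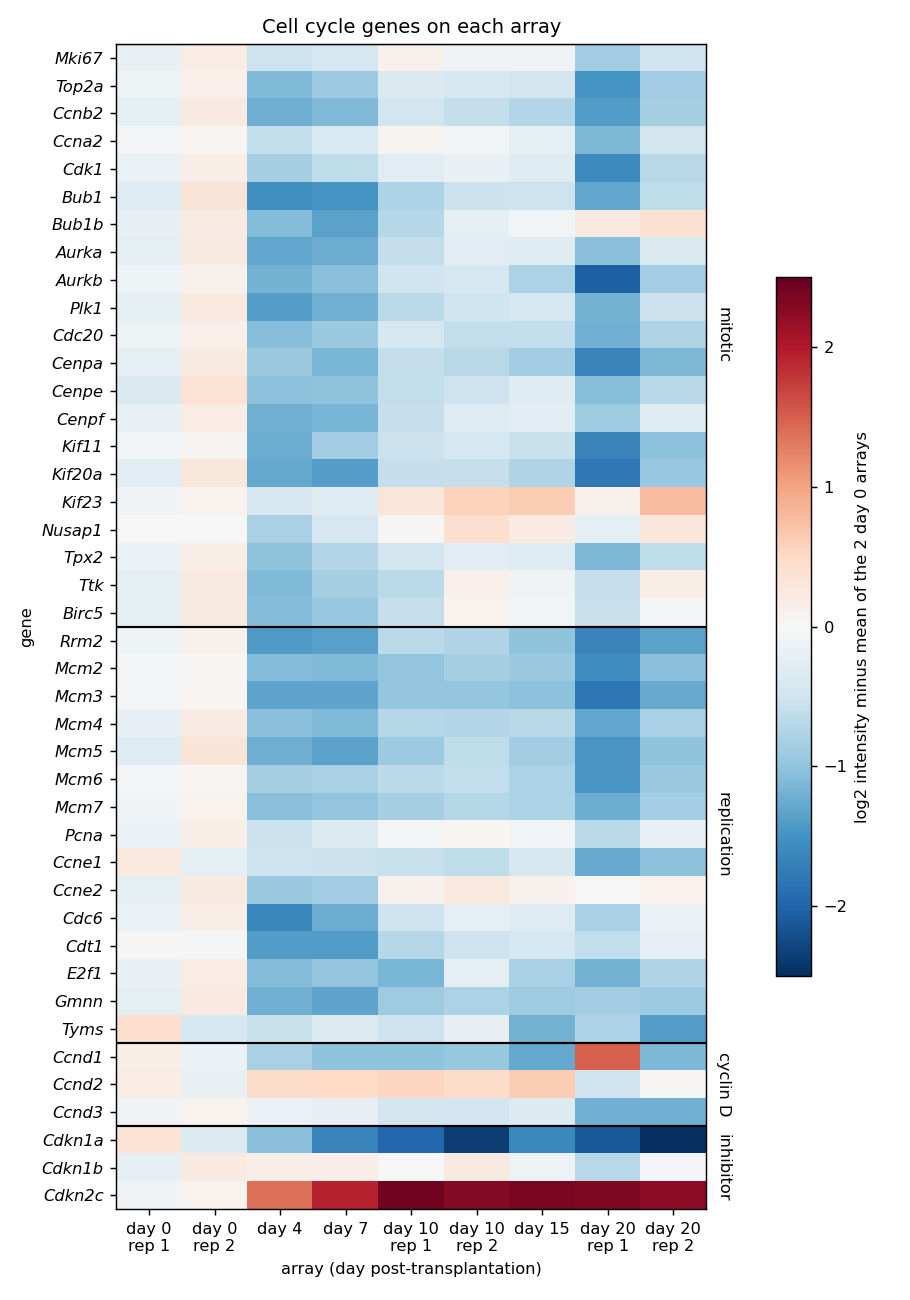
Log2 intensity of each of the 42 measured genes (rows, grouped by role) on each of the 9 arrays (columns, by day and replicate), minus the gene's mean on the 2 day 0 arrays, with blue below and red above it. Most mitotic and replication rows are blue on days 4 and 7 and on replicate 1 of day 20, paler on days 10 and 15, and Cdkn2c is red on all graft arrays.

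The course on days 4, 7 and 10 was shared by nearly the whole mitotic list. The arrays of days 4 and 7 both lay below all 4 arrays of days 0 and 10 in 21 of 21 mitotic genes and 12 of 15 replication genes, but in 0 of 3 D-type cyclins and 0 of 3 inhibitors. Together these were 33 of 42 genes, against 8.45% of all probe sets, and this pattern was chosen after the values were seen. When day 10 was set against days 4 and 7, 0 of the 42 genes were called by limma in either direction, and so was 0% of all probe sets. At an unadjusted p under 0.05, 12 genes were higher (3.03% of all probe sets) and 1 was lower (3.68% of all). The largest difference was that of Ccne2 (1.08, SE 0.20, adjusted p = 0.358), followed by Cdc6 (1.07, SE 0.27, adjusted p = 0.504). Days 4 and 7 have 1 array each, which the fit assumes to vary like the duplicated days. The fetal germ cell markers were also lowest on these arrays, the macrophage markers were at 10.33 on day 4 and 10.04 on day 7 (and at 10.20 on replicate 1 of day 20), and their part in the result was not tested.

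Mki67 encodes the proliferation marker Ki-67, which coats chromosomes in mitosis. It measured 11.08 and 11.44 on day 0, 10.74 on day 4, 10.82 on day 7, 11.37 and 11.18 on day 10, 11.17 on day 15, and 10.39 and 10.77 on day 20. Mki67 on days 10 and 15 thus lay within the span of the day 0 arrays, and it was below both of them on days 4, 7 and 20. On day 20 its change against day 0 was -0.68 (SE 0.22, adjusted p = 0.115), and -0.49 without replicate 1 (adjusted p = 0.224).

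Cdk1, the kinase that drives entry into mitosis, measured 10.78 and 11.11 on day 0, 10.12 on day 4, 10.31 on day 7, 10.68 and 10.76 on day 10, 10.65 on day 15, and 9.35 and 10.25 on day 20. Top2a, a topoisomerase that untangles sister chromatids, measured 11.56 and 11.81 on day 0, 10.59 on day 4, 10.78 on day 7, 11.32 and 11.27 on day 10, 11.22 on day 15, and 10.18 and 10.81 on day 20. Both genes were below day 0 on all 7 graft arrays, and both were lowest on replicate 1 of day 20. Top2a averaged 10.50 ± 0.44 on day 20, against 11.68 ± 0.18 on day 0 (SD, n = 2 each), a fall of 2.28-fold (log2 change -1.19, SE 0.25, adjusted p = 0.0417). Without replicate 1 of day 20 the change was -0.87 (adjusted p = 0.061). Cdk1 did not pass, with -1.15 (SE 0.32, adjusted p = 0.0841), or -0.70 without replicate 1 (adjusted p = 0.111).

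Kif11 encodes a motor that separates the spindle poles, and it measured 9.16 and 9.31 on day 0, 7.99 on day 4, 8.37 on day 7, 8.70 and 8.80 on day 10, 8.69 on day 15, and 7.56 and 8.22 on day 20. Cenpa encodes the histone H3 variant that marks centromeres, and it measured 10.45 and 10.91 on day 0, 9.76 on day 4, 9.54 on day 7, 10.09 and 9.99 on day 10, 9.81 on day 15, and 9.02 and 9.56 on day 20. The graft values of both genes lay below both day 0 arrays on every day. Kif11 fell by 1.35 on the log2 scale on day 20 (SE 0.25, adjusted p = 0.0303), and by 1.02 without replicate 1 (adjusted p = 0.038). Cenpa fell by 1.39 (SE 0.26, adjusted p = 0.0305), and without replicate 1 its change was -1.12 (adjusted p = 0.0669).

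Kif20a, a kinesin needed for cytokinesis, measured 9.43 and 9.99 on day 0, 8.43 on day 4, 8.34 on day 7, 9.12 and 9.13 on day 10, 8.97 on day 15, and 7.92 and 8.77 on day 20. Aurkb, the kinase of the chromosomal passenger complex, measured 8.73 and 8.94 on day 0, 7.65 on day 4, 7.78 on day 7, 8.34 and 8.41 on day 10, 8.05 on day 15, and 6.78 and 7.98 on day 20. These 2 genes had large mean changes on day 20 that missed the threshold, -1.37 for Kif20a (SE 0.33, adjusted p = 0.0615) and -1.45 for Aurkb (SE 0.39, adjusted p = 0.0775). The day 20 arrays lay far apart, and replicate 2 alone gave -0.94 for Kif20a (adjusted p = 0.111) and -0.85 for Aurkb (adjusted p = 0.0579). Cdc20, an activator of the anaphase-promoting complex, passed the adjusted p (0.0471) with a change of -0.98 (SE 0.21), just under 2-fold, and without replicate 1 its change was -0.76 (adjusted p = 0.0874).

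A few mitotic genes were near or above day 0 by day 20. Nusap1, which bundles spindle microtubules, measured 10.22 and 10.22 on day 0, 9.41 on day 4, 9.79 on day 7, 10.25 and 10.63 on day 10, 10.43 on day 15, and 10.00 and 10.49 on day 20. Ttk, a kinase of the spindle checkpoint, measured 9.08 and 9.54 on day 0, 8.21 on day 4, 8.47 on day 7, 8.64 and 9.43 on day 10, 9.23 on day 15, and 8.72 and 9.47 on day 20. Neither passed the test on day 20 (0.03, SE 0.23, adjusted p = 0.948 for Nusap1, and -0.21, SE 0.38, adjusted p = 0.758 for Ttk). Without replicate 1 the changes were 0.28 for Nusap1 (adjusted p = 0.441) and 0.16 for Ttk (adjusted p = 0.824), so the sign for Ttk turned. Both day 20 arrays were above both day 0 arrays in 2 mitotic genes, Bub1b (spindle checkpoint) and Kif23 (central spindle), and in Cdkn2c, 3 of 42 in all, against 18.9% of all probe sets. The changes of Bub1b (0.31, SE 0.23, adjusted p = 0.449) and Kif23 (0.44, SE 0.26, adjusted p = 0.349) did not pass, nor did those without replicate 1 (0.39, adjusted p = 0.427, and 0.77, adjusted p = 0.0891). Among the mitotic genes the day 20 changes therefore spread between -1.45 in Aurkb and 0.44 in Kif23 (between -1.12 in Cenpa and 0.77 in Kif23 without replicate 1), whereas on day 4 all lay between -1.53 and -0.43.

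The 6 MCM genes encode the subunits of the helicase that unwinds DNA at replication forks, and all of them were lower in the grafts. Their median change was -1.06 on day 4, -1.10 on day 7, -0.87 and -0.72 on day 10, -0.83 on day 15 and -1.46 and -0.96 on day 20. Each of the 6 was below both day 0 arrays on all 7 graft arrays. The other 9 replication genes had medians of -0.55 and -0.22 on day 10 and of -0.44 on day 15, closer to day 0 than the MCM genes on each of these arrays. The difference between the 2 groups was not tested.

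Mcm3 measured 10.99 and 11.10 on day 0, 9.72 on day 4, 9.73 on day 7, 10.08 and 10.08 on day 10, 10.02 on day 15, and 9.24 and 9.79 on day 20. Mcm2 measured 11.01 and 11.07 on day 0, 9.96 on day 4, 9.94 on day 7, 10.06 and 10.21 on day 10, 10.10 on day 15, and 9.49 and 10.00 on day 20. The day 0 arrays lay close to each other in both genes, and every graft array was well below them. On day 20 Mcm3 averaged 9.51 ± 0.39, against 11.04 ± 0.08 on day 0 (SD, n = 2 each), a fall of 2.88-fold (log2 change -1.53, SE 0.22, adjusted p = 0.016). Mcm2 fell by 1.29 (SE 0.21, adjusted p = 0.0227). Both calls held without replicate 1 of day 20, with -1.25 (adjusted p = 0.0218) for Mcm3 and -1.04 (adjusted p = 0.0352) for Mcm2.

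Mcm6 measured 12.26 and 12.34 on day 0, 11.47 on day 4, 11.49 on day 7, 11.65 and 11.69 on day 10, 11.51 on day 15, and 10.85 and 11.38 on day 20. Mcm5 measured 11.19 and 11.84 on day 0, 10.28 on day 4, 10.17 on day 7, 10.60 and 10.87 on day 10, 10.65 on day 15, and 10.05 and 10.50 on day 20. Mcm6 fell by 1.18 on day 20 (SE 0.21, adjusted p = 0.0289), and without replicate 1 the change was -0.92 (adjusted p = 0.0388), under 2-fold. Mcm7 fell by 1.05 (SE 0.20, adjusted p = 0.0322), and its change without replicate 1 was -0.85 (adjusted p = 0.0586). For Mcm5 the probe set used did not pass (-1.23, SE 0.29, adjusted p = 0.0547, and -1.01 with adjusted p = 0.134 without replicate 1), and another of its probe sets did (-1.81, adjusted p = 0.0377). The probe set used for Mcm4 also missed (-1.05, SE 0.23, adjusted p = 0.0503, and -0.80 with adjusted p = 0.0987 without replicate 1), whereas another passed (-1.01, adjusted p = 0.0318). On day 10 no MCM gene was called by the probe set used, and the adjusted p of Mcm3 was 0.0768 at a change of -0.96 (SE 0.22), but another probe set of Mcm3 was called lower (-1.04, adjusted p = 0.0435).

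Rrm2 encodes the S phase subunit of ribonucleotide reductase, which makes deoxynucleotides. It measured 11.33 and 11.53 on day 0, 10.02 on day 4, 10.07 on day 7, 10.76 and 10.69 on day 10, 10.42 on day 15, and 9.77 and 10.09 on day 20. The 7 graft arrays all lay below both day 0 arrays, and the 4 lowest values were those of days 4, 7 and 20. Rrm2 averaged 9.93 ± 0.22 on day 20, against 11.43 ± 0.14 on day 0 (SD, n = 2 each), a fall of 2.83-fold (log2 change -1.50, SE 0.18, adjusted p = 0.01, and -1.34 with adjusted p = 0.024 without replicate 1).

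Cdt1 loads the MCM helicase onto origins, and it measured 11.39 and 11.32 on day 0, 9.96 on day 4, 9.96 on day 7, 10.66 and 10.85 on day 10, 10.92 on day 15, and 10.75 and 11.11 on day 20. It was lowest on days 4 and 7 (-1.40 and -1.39 against day 0, SE 0.23 each, adjusted p = 0.0733 and 0.0577), and on day 20 its change was -0.43 (SE 0.19, adjusted p = 0.215), or -0.25 without replicate 1 (adjusted p = 0.373). Another probe set of Cdt1 had a day 20 change of -1.11 (adjusted p = 0.0594), so the size on day 20 depends on the probe set. Cdc6, its partner in loading, had the largest day 4 change of the 42 genes, -1.63 (SE 0.34, adjusted p = 0.136).

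The E-type cyclins, which start S phase with Cdk2, parted from each other. Ccne1 measured 8.83 and 8.35 on day 0, 8.07 on day 4, 8.05 on day 7, 8.04 and 7.96 on day 10, 8.19 on day 15, and 7.34 and 7.57 on day 20. Ccne2 measured 8.21 and 8.68 on day 0, 7.51 on day 4, 7.57 on day 7, 8.56 and 8.69 on day 10, 8.55 on day 15, and 8.43 and 8.54 on day 20. Ccne1 stayed below both day 0 arrays throughout and fell by 1.14 on day 20 (SE 0.21, adjusted p = 0.0325). Without replicate 1 its change was -1.02 (adjusted p = 0.0835). Another probe set of Ccne1 was called lower on day 10 as well (-1.22, adjusted p = 0.0217). Ccne2 was below day 0 on days 4 and 7 only, and its day 20 change was 0.04 (SE 0.20, adjusted p = 0.919), or 0.10 without replicate 1 (adjusted p = 0.825).

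Pcna, the sliding clamp of DNA polymerases, measured 12.78 and 13.06 on day 0, 12.39 on day 4, 12.58 on day 7, 12.88 and 12.96 on day 10, 12.85 on day 15, and 12.24 and 12.73 on day 20. E2f1, a transcription factor that switches on S phase genes, measured 8.17 and 8.55 on day 0, 7.27 on day 4, 7.37 on day 7, 7.22 and 8.15 on day 10, 7.55 on day 15, and 7.18 and 7.61 on day 20. Pcna on days 10 and 15 lay within the span of the day 0 arrays, and E2f1 was below it on every graft array, with day 10 arrays that lay far apart. Neither passed on day 20 (-0.44, SE 0.22, adjusted p = 0.275 for Pcna, and -0.97, SE 0.35, adjusted p = 0.155 for E2f1). Without replicate 1 the changes were -0.19 for Pcna (adjusted p = 0.54) and -0.75 for E2f1 (adjusted p = 0.326). Tyms (thymidylate synthase) was the only gene with a day mean under 4.82, the 25th percentile of all values, and changes of it are uncertain in size.

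Of the D-type cyclins, which carry growth signals to the cycle, none followed the course of the mitotic genes. Ccnd2, the D-type cyclin of granulosa cells, measured 12.29 and 11.93 on day 0, 12.57 on day 4, 12.61 on day 7, 12.64 and 12.57 on day 10, 12.74 on day 15, and 11.61 and 12.14 on day 20. It was above both day 0 arrays on days 4, 7, 10 and 15 and not on day 20, and no comparison called it (on day 10 the change was 0.50, adjusted p = 0.308, and on day 20 it was -0.23, adjusted p = 0.575, or 0.03 without replicate 1, adjusted p = 0.937). Other probe sets of Ccnd2 gave day 10 changes between 0.47 and 1.21 and day 20 changes between -0.57 and 0.30, none of them called. The size and the day 20 sign thus depend on the probe set. Ccnd3 measured 10.84 and 11.00 on day 0, 10.77 on day 4, 10.71 on day 7, 10.45 and 10.44 on day 10, 10.58 on day 15, and 9.72 and 9.71 on day 20. Its day 20 arrays were the lowest and nearly equal, and Ccnd3 averaged 9.72 ± 0.01 on day 20, against 10.92 ± 0.11 on day 0 (SD, n = 2 each), a fall of 2.29-fold (log2 change -1.20, SE 0.15, adjusted p = 0.0108, and -1.20 with adjusted p = 0.0261 without replicate 1). Another probe set of Ccnd3, at a mean of 6.36, gave 0.44 (adjusted p = 0.119), and the call was lost when the probe sets of the gene were averaged.

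Ccnd1 measured 10.14 and 9.83 on day 0, 9.18 on day 4, 8.99 on day 7, 8.99 and 9.05 on day 10, 8.71 on day 15, and 11.49 and 8.85 on day 20. It was below both day 0 arrays on each graft array except replicate 1 of day 20, the array with the kidney markers, where it was highest of all. With both day 20 arrays the change was 0.19 (SE 0.80, adjusted p = 0.906), and without replicate 1 it was -1.13 (adjusted p = 0.0434), past both thresholds in the other direction.

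**Figure D4:**
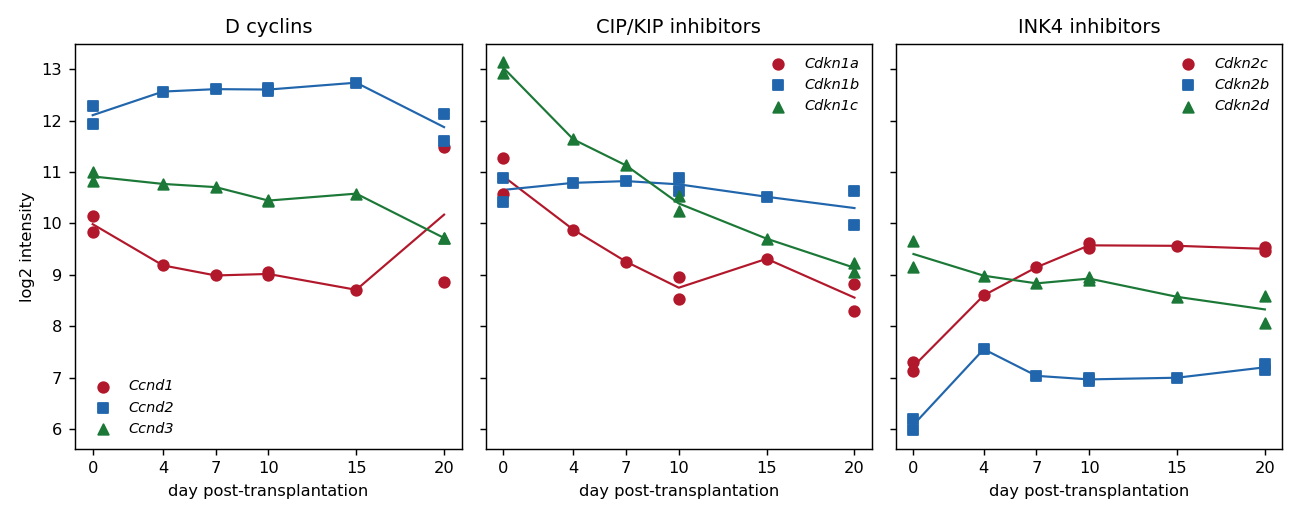
Log2 intensity (y axis) of 3 D-type cyclins, 3 CIP/KIP inhibitors and 3 INK4 inhibitors by day post-transplantation (x axis), 1 point per array, with lines through the mean of each day. Cdkn2c stands at 8.60 or more in all grafts, against 7.14 and 7.30 on day 0, Cdkn1a and Cdkn1c are below day 0 on every graft array, and Ccnd1 is split on day 20.

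On days 10 and 20 the largest changes among the 42 genes were those of 2 inhibitors, in opposite directions. Cdkn2c encodes p18, an INK4 inhibitor of Cdk4 and Cdk6, and it measured 7.14 and 7.30 on day 0, 8.60 on day 4, 9.15 on day 7, 9.63 and 9.52 on day 10, 9.57 on day 15, and 9.55 and 9.46 on day 20. It was the only one of the 42 genes with all 7 graft arrays above both day 0 arrays (10.3% of all probe sets were). Cdkn2c averaged 9.57 ± 0.08 on day 10 and 9.51 ± 0.06 on day 20, against 7.22 ± 0.12 on day 0 (SD, n = 2 each). It rose on every graft day, by 1.38 on day 4 (SE 0.19, adjusted p = 0.048), 1.93 on day 7 (SE 0.19, adjusted p = 0.0171), 2.35 on day 10 (SE 0.16, adjusted p = 0.00413), 2.34 on day 15 (SE 0.19, adjusted p = 0.0091) and 2.29 on day 20 (SE 0.16, adjusted p = 0.00253). The day 20 rise was 4.88-fold, and without replicate 1 the change was 2.24 (adjusted p = 0.0105). The day 20 call held with any 1 array left out (adjusted p up to 0.0294), whereas the calls of days 4 and 7 were lost when any 1 array of days 0 or 10 was left out (adjusted p up to 0.195 and 0.0855), that of day 10 without either of its arrays (up to 0.0583) and that of day 15 without either day 0 array (up to 0.0639). Granulosa markers of growing follicles (9 of 10 measured) also averaged 9.20 to 10.38 in the grafts, against 7.55 and 7.73 on day 0, and their part in the result was not tested.

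Cdkn1a encodes p21, a CIP/KIP inhibitor induced by p53, and it measured 11.27 and 10.57 on day 0, 9.88 on day 4, 9.26 on day 7, 8.96 and 8.54 on day 10, 9.31 on day 15, and 8.83 and 8.29 on day 20. Every graft array was below both day 0 arrays. Cdkn1a averaged 8.75 ± 0.30 on day 10 and 8.56 ± 0.38 on day 20, against 10.92 ± 0.49 on day 0 (SD, n = 2 each). It fell by 2.17 on day 10 (SE 0.32, adjusted p = 0.0257) and by 2.36, or 5.15-fold, on day 20 (SE 0.32, adjusted p = 0.0137), and by 2.63 without replicate 1 of day 20 (adjusted p = 0.0295). The day 10 call was lost when any 1 array of days 0 or 10 was left out, and the day 20 call without replicate 1 of day 0. Another probe set of Cdkn1a was lower but not called. Its changes were -1.63 on day 10 (adjusted p = 0.136) and -1.89 on day 20 (adjusted p = 0.069). Erythroid markers were lower alongside Cdkn1a, and their part in the result was not tested. Busulfan, which alkylates DNA, was given before the ovaries were taken. The day 0 ovaries were thus closer in time to the injections than any graft, and the part of busulfan was not tested either.

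Cdkn1b, which encodes the CIP/KIP inhibitor p27, measured 10.43 and 10.88 on day 0, 10.79 on day 4, 10.82 on day 7, 10.64 and 10.89 on day 10, 10.52 on day 15, and 9.97 and 10.63 on day 20. Its values on days 4 to 15 lay within or just at the edge of the span of the day 0 arrays, and no comparison called it (day 20: -0.35, SE 0.29, adjusted p = 0.479, and -0.02 without replicate 1, adjusted p = 0.966).

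Array by array and with no threshold, all 7 graft arrays lay below both day 0 arrays in 26 of 42 genes, 13 mitotic, 11 replication, Ccnd3 and Cdkn1a, against 19.6% of all probe sets. Both day 20 arrays lay below both day 0 arrays in 31 genes, against 35.3% of all probe sets, and both day 10 arrays in 30, against 38.3% of all.

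Day 20 was also set against day 10. Of the 42 genes, 38 had a lower mean on day 20 than on day 10, as had 58.2% of all probe sets, and limma called 0 lower (0% of all) and 0 higher (0.00222% of all). At an unadjusted p under 0.05, 13 were lower (1.85% of all probe sets) and 1 higher (3.15% of all). Replicate 1 of day 20 was below replicate 2 in 36 of the 42 genes and in 21 of 21 mitotic genes, against 52.7% of all probe sets, and it was the lowest of all 9 arrays in 24 genes, against 25.7% of all. Without this array the median change of day 20 against day 10 was -0.22 for the mitotic genes and -0.14 for the replication genes, and against day 0 it was -0.63 and -0.91. Without it, 7 genes were called lower on day 20 than on day 0 (2.12% of all probe sets), and without replicate 2 the number was 21 (7.04% of all). The 7 were Kif11, Rrm2, Mcm2, Mcm3, Ccnd1, Ccnd3 and Cdkn1a. The kidney markers moved with replicate 1, and their part in its lower values was not tested.

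Wider lists of the same pathways also had medians below day 0. Of 50 further mitotic genes, 0 were called on days 4, 7, 10 and 15. On these days 0.155% to 1.33% of all probe sets were called lower and 0.774% to 2.87% higher. On day 20 there were 4 lower (3.1% of all probe sets) and 2 higher (4.52% of all). Without replicate 1 of day 20, 1 was lower (2.12% of all) and 1 higher (4.69% of all). Their median change was -0.83 on day 4, -0.23 on day 10 and -0.46 on day 20, and on day 20 it was -0.78 on replicate 1 and -0.20 on replicate 2. Aspm, which organizes spindle poles, measured 9.83 and 10.22 on day 0, 9.24 on day 4, 9.51 on day 7, 10.47 and 10.66 on day 10, 11.50 on day 15, and 11.40 and 12.02 on day 20. It was above both day 0 arrays on days 10, 15 and 20 and rose by 1.69 on day 20 (SE 0.26, adjusted p = 0.0201), and by 1.99 without replicate 1 (adjusted p = 0.0205). Ccnf (cyclin F), with -1.52 (SE 0.23, adjusted p = 0.0181), and Ncapd2 (condensin I), with -1.52 (SE 0.28, adjusted p = 0.0318), fell on day 20, with -1.25 (adjusted p = 0.032) and -1.19 (adjusted p = 0.0655) without replicate 1.

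Of 40 further replication genes, 37 were measured, and on day 20, 8 were lower (3.1% of all probe sets) and 0 higher (4.52% of all), with a median of -0.86. Without replicate 1 of day 20, 2 were lower (2.12% of all) and 0 higher (4.69% of all), with a median of -0.59. The largest fall was that of Rfc4, a subunit of the clamp loader (-1.72, SE 0.31, adjusted p = 0.0284). Hells, a chromatin remodeller (-1.59, SE 0.32, adjusted p = 0.0377), and Chaf1b, of the chromatin assembly factor (-1.53, SE 0.25, adjusted p = 0.0214), also fell. Without replicate 1 the changes were -1.37 for Rfc4 (adjusted p = 0.0643), -1.19 for Hells (adjusted p = 0.0697) and -1.21 for Chaf1b (adjusted p = 0.0321).

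Of 30 further regulators, 29 were measured, and on day 20, 4 were lower (Cdk4, Cdkn1c, Skp2 and Mycn, against 3.1% of all probe sets) and 2 higher (Cdkn2b and Myc, against 4.52% of all), and these 6 calls held without replicate 1 of day 20. Cdkn1c, which encodes the CIP/KIP inhibitor p57, measured 13.13 and 12.93 on day 0, 11.64 on day 4, 11.13 on day 7, 10.25 and 10.53 on day 10, 9.70 on day 15, and 9.05 and 9.23 on day 20. It was lower on each later day, and its changes on days 10, 15 and 20 were -2.65, -3.33 and -3.90 (adjusted p = 0.00433, 0.00643 and 0.00128). Without replicate 1 the day 20 change was -3.81 (adjusted p = 0.00723). Mycn, a transcription factor of growth, measured 11.78 and 11.66 on day 0, 9.26 on day 4, 9.43 on day 7, 9.99 and 10.04 on day 10, 10.12 on day 15, and 9.77 and 10.45 on day 20. Mycn was lowest on days 4 and 7 and was called lower on days 4, 7, 10 and 20 (day 4: -2.46, adjusted p = 0.0384, and day 20: -1.61, adjusted p = 0.0199, or -1.27 without replicate 1, adjusted p = 0.0222). Myc, its relative, measured 7.95 and 8.21 on day 0, 9.12 on day 4, 9.26 on day 7, 9.55 and 9.36 on day 10, 10.26 on day 15, and 9.30 and 10.12 on day 20, above both day 0 arrays on every graft array, and it rose by 1.63 on day 20 (SE 0.30, adjusted p = 0.0302), and by 2.04 without replicate 1 (adjusted p = 0.0152). With 1 array of days 0 or 10 left out, the day 20 calls of Myc, Mycn, Aspm, Ccnf, Ncapd2, Rfc4, Hells and Chaf1b were lost, and that of Cdkn1c held (adjusted p up to 0.0208).

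Other probe sets of the same genes did not always move alike. With the probe sets of each gene averaged, 12 genes were called lower on day 20 (4.59% of 18194 genes). The calls of Top2a, Cenpa, Kif11, Mcm6 and Ccnd3 were then lost, and Aurkb, Bub1, Ccnb2, Kif20a, Mcm4 and Mcm5 were gained. Of 31 genes with more than 1 probe set, 3 had a set with the opposite sign to the one used on day 4 and 9 on day 20, Ccnd3, Cdt1 and Nusap1 among them. Of the 59 further probe sets, 12 were called lower (3.1% of all probe sets) and 0 higher (4.52% of all) on day 20 against day 0. On day 10 there were 2 lower (1.33% of all), those of Mcm3 and Ccne1 given above, and 0 higher (2.87% of all).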

How the data were processed

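Affymetrix 3' arrays of 45101 probe sets were used in the study for 9 pooled samples. The authors deposited log2 values made with the robust multiarray algorithm (RMA), which corrects background, quantile-normalizes the arrays and summarises each probe set. Its version is not stated in the sources, and neither is which of 2 labelling kits each array had. The values hold no detection call, so the number of arrays limits the precision, and array medians lay between 6.49 and 6.63.

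From these values, limma 3.58.1 in R 4.3.3 was fitted to all probe sets with a mean per day (3 residual degrees of freedom, 2.69 prior degrees of freedom, prior variance 0.0423). Tables and motif searches used Python 3.11.15 with numpy 2.4.6 and pandas 2.3.3, figures used matplotlib 3.10.9, and the fit was tested on simulated data. The annotation table gave 1 symbol for 34958 probe sets, several for 932 and none for 9211, and only those with 1 symbol stood for genes. The members, the wider lists and the marker lists were chosen with earlier results of these data known. The genes named with every array were all D-type cyclins and inhibitors, Mki67, Pcna and E2f1, and the 6 mitotic and 6 replication genes with the largest and the 2 each with the smallest day 20 change. Of each wider list, up to 3 called genes with the largest change were named, and further genes were named for single values after these had been seen. Days 4, 7, 10, 15 and 20 were compared with day 0, day 20 with day 10, and, chosen after the values were seen, day 10 with days 4 and 7. The 16 alternatives covered normalization, filters, a floor, thresholds, probe sets, a replicate block and arrays left out.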

Additional observations from a re-analysis of the deposited data

How the results depend on the processing

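With 3 residual degrees of freedom, calls of single genes depended on the settings, and the depth of these data is their number of arrays. Cdkn2c was called higher on day 20 in all 16 alternatives (adjusted p between 0.00129 and 0.0294), and so was Cdkn1c lower (0.000446 to 0.0208). The 11 genes called lower on day 20 (3.1% of all probe sets) became 3 (0.902% of all) when only the arrays of days 20 and 0 were fitted. They became 2 (0.749% of all) when values under the 25th percentile were raised to it. This floor also left 0 lower on day 10 (0.346% of all) and 0 higher on day 4 (0.197% of all). On day 4 the count higher was also 0 with median centring (0.807% of all), an intensity trend (0.965%) or a further quantile normalization (0.694%). The count lower on day 4 was 2 with the trend (0.195% of all). It was 1 with the quantile normalization (0.166%), with averaged probe sets (0.396% of genes) or with dim probe sets left out (0.248%). The count lower on day 7 was 2 with the trend (0.439% of all), the quantile normalization (0.443%) or dim probe sets left out (0.647%). It was 1 with median centring (0.459%) or averaged probe sets (0.863% of genes).

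Leaving out 1 array of days 0, 10 or 20 at a time gave 0 to 3 lower and 0 to 1 higher on day 4, 0 to 4 lower and 0 to 1 higher on day 7, 0 to 1 lower and 0 to 1 higher on day 10, and 0 to 3 lower and 0 to 1 higher on day 15. On day 20 it gave 0 to 21 lower and 1 to 2 higher against day 0, and 0 to 3 lower and 0 to 1 higher against day 10. The count of 0 came without replicate 1 of day 0, 1 lower was left without replicate 2 of day 0, and 3 without either day 10 array. The day 20 change of Ccnd1 was -1.13 without replicate 1 of day 20 and 1.503 without replicate 2. The share of all probe sets called lower or higher also changed with the array left out. The causes were not tested. Deviations of same-numbered replicates from their day means correlated weakly. The values were -0.158 between days 0 and 10, 0.154 between days 0 and 20 and -0.128 between days 10 and 20. These correlations cannot exclude litters or hosts shared between pools, which the sources do not state. With a replicate block, 12 genes were lower (2.53% of all probe sets) and 1 higher (4.11% of all) on day 20 against day 0. Ccne1 was not called, and 0 were called against day 10 (0% of all).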
